A study of Homo sapiens with 6 samples.

Results

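A set of 10 enzymes that make, activate or inactivate androgens inside prostate tissue was followed across 6 prostate cancer cell lines. The set was AKR1C1, AKR1C2, AKR1C3, SRD5A1, SRD5A3, HSD17B4, HSD17B6, HSD17B11, HSD3B1 and STS, taken by gene name from the deposited expression tables. These are 10 of 47032 gene symbols, and each had 1 entry of its own. RNA came from 1 library per line. The labels call 3 lines castration sensitive (LNCaP, spelled LnCaP there, with VCaP and LAPC4), and 3 more castration resistant (LAPC4-CR, VCaP-CR and LNCaP-abl, each named for its parent). The sensitive lines were kept with 10% fetal bovine serum, VCaP in DMEM and the others in RPMI, while all 3 resistant lines grew in RPMI with 10% charcoal-stripped serum and B27 supplement. None had another treatment. Charcoal removes steroids from serum, so state, steroid supply and B27 supplement changed together in every pair and cannot be told apart. In the VCaP pair the medium changed with them, from DMEM to RPMI. Every line compared is a cancer line kept in culture, and no source used here tells how the resistant lines were derived.

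Prostate cells can make dihydrotestosterone, the strongest natural androgen, from precursors of the adrenal gland. STS frees dehydroepiandrosterone from its sulfate, HSD3B1 converts it to androstenedione, AKR1C3 reduces androstenedione to testosterone, and the 5-alpha-reductases act on androstenedione or testosterone. AKR1C2 and AKR1C1 remove dihydrotestosterone by reduction, HSD17B6 can restore it from a 3-alpha-reduced metabolite, and HSD17B4 oxidises 17-hydroxysteroids to their less active 17-keto forms.

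Levels are given in scaled FPKM, that is, the FPKM of the tables, which relates counts to gene length and library total, divided by a factor per library (0.863 to 1.08). Total counts ran from 8661337 to 22433655, with more in the resistant than in the sensitive library of every pair. Luminal markers were present: KRT8, a luminal keratin, lay between 13.3 and 95.9 scaled FPKM and KRT18 between 17.6 and 75.7. KLK3, prostate-specific antigen, whose expression depends on androgens, was lower in the resistant library of each pair, at 0.668 against 603 (LNCaP), 19.0 against 321 (VCaP) and 2.07 against 105 (LAPC4). ERG, which VCaP carries as a fusion, was at 16.6 and 5.42 in VCaP and VCaP-CR and at 0.191 or less in the other 4 libraries. Intervals below are exact 95% intervals that cover counting error only and hold the factor of each library fixed. With 1 library per line they say nothing of the spread between cultures. The libraries come from bulk cells, where fewer cells with a transcript and less of it per cell cannot be told apart.

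Of the 7 enzymes with enough signal to test, 4 differed between the 3 lineages, each a parental line taken with its resistant line (12.1% of all tested genes did), and 0 between the sensitive and the resistant state (0% did). The count of 4 is a description only. AKR1C3 and HSD17B6, among the 4, reached the level required for testing through the VCaP libraries, where they were high. HSD17B4 had the highest level of the set in 5 of 6 libraries, up to 32.2 scaled FPKM, and SRD5A1 the highest in LAPC4. AKR1C3 was plentiful in the VCaP lineage, at 18.7 and 10.9, and at or below 0.690 elsewhere. SRD5A3 was lowest in the VCaP lineage and SRD5A1 highest in the LAPC4 lineage. AKR1C1 and HSD3B1 stayed under 0.5 scaled FPKM in every library. Among these 7, the 2 changes of at least 2-fold within a pair, on the scale log2(scaled FPKM + 1), were HSD17B6, lower in VCaP-CR than in VCaP, and HSD17B11, lower in LAPC4-CR than in LAPC4.

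**Figure D1:**
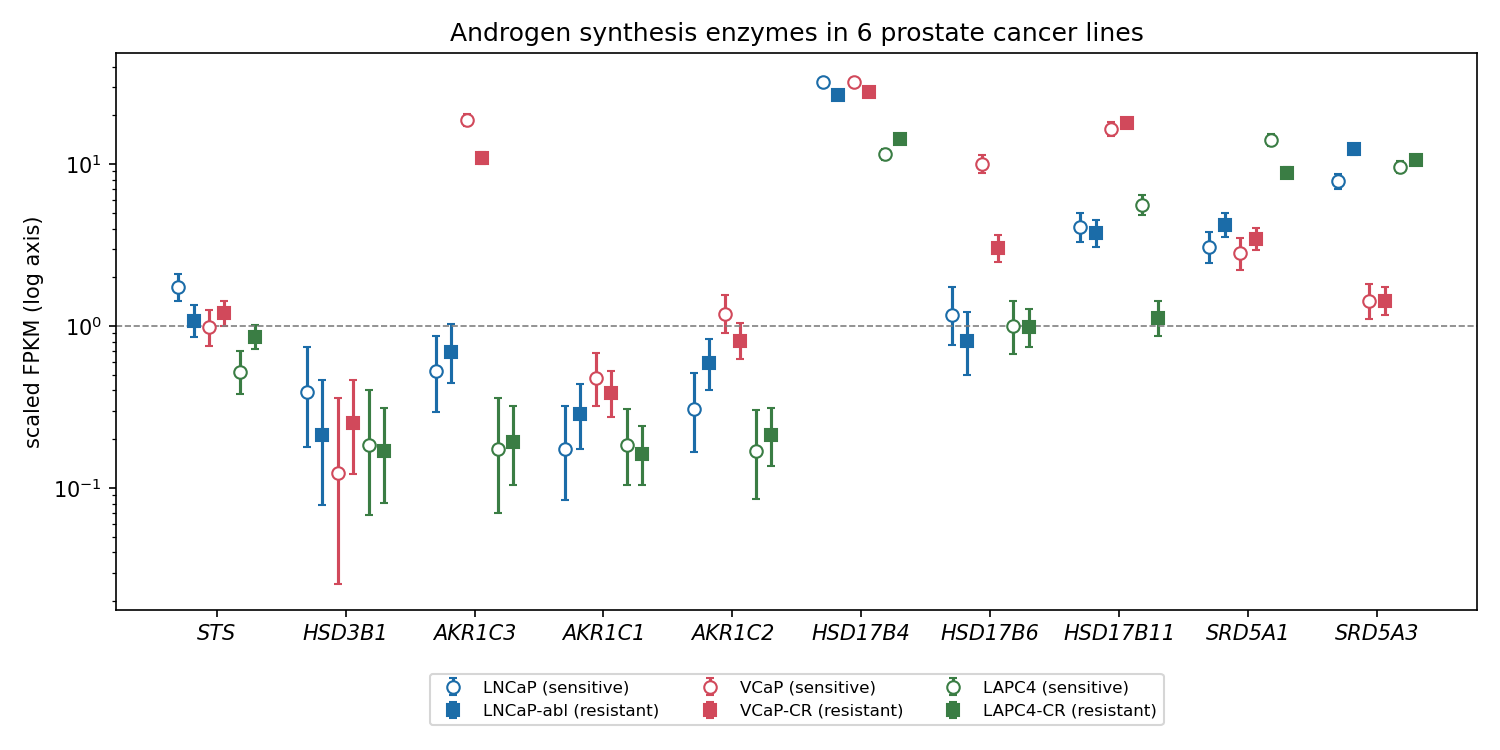
Scaled FPKM (log axis) of the 10 enzymes in the 6 libraries, with exact 95% counting intervals as bars; open circles are castration-sensitive and filled squares castration-resistant lines, and the dashed line is 1 scaled FPKM. AKR1C3 stands at 18.7 and 10.9 in the VCaP lineage and at 0.690 or less elsewhere, while HSD17B4 is at 11.5 or more in every library.

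STS, steroid sulfatase, lies on chromosome X, 7147497 to 7282851 in the hg18 coordinates of the tables. LNCaP and LNCaP-abl had 1.73 and 1.08 scaled FPKM, the VCaP lineage (VCaP, then VCaP-CR) 0.984 and 1.21, and the LAPC4 lineage (LAPC4, then LAPC4-CR) 0.520 and 0.861, from 45 to 136 counts. All libraries lay within 3.33-fold of each other, with LNCaP highest and LAPC4 lowest. The resistant-to-sensitive ratio was 0.623 (0.461 to 0.840) for LNCaP, 1.22 (0.900 to 1.68) for VCaP and 1.66 (1.17 to 2.37) for LAPC4. The resistant line thus had less in the LNCaP pair and more in the LAPC4 pair, beyond counting error.

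HSD3B1, 3-beta-hydroxysteroid dehydrogenase 1, lies on chromosome 1, 119851344 to 119859204 (hg18). Its counts, parent before resistant line, were 9 and 6 (LNCaP), 3 and 10 (VCaP), and 6 and 10 (LAPC4), or 0.123 to 0.392 scaled FPKM. Genes that mark lymphocytes had similar levels in these cultures, with PTPRC at 0.130 to 0.338 and CD3E at 0.212 to 0.600. Its pair ratios had intervals as wide as 0.529 to 11.6, in the VCaP pair, so neither a change nor its absence was detectable at this depth. Enzymes that start steroid synthesis from cholesterol in the adrenal gland and testis were also near this level. CYP11A1 was at 0.153 to 0.782 and CYP17A1 at 0.119 to 0.282 scaled FPKM. Of the other genes listed as markers of steroid-making cells, STAR was at 0.120 to 0.378, and NR5A1 was higher, at 1.48 to 3.14.

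AKR1C3, also called 17-beta-hydroxysteroid dehydrogenase type 5, lies on chromosome 10, 5067549 to 5139878 (hg18), beside AKR1C1 (4924796 to 5012159) and AKR1C2 (5019967 to 5050207). The 3 genes are near copies, so the letters of their messages bear on which gene a read is counted for. In the reference coding sequence (GENCODE 29, 972 bases each) AKR1C1 and AKR1C2 differ at 19 positions, an identity of 98.0%, whereas AKR1C3 differs from AKR1C1 at 83 positions (91.5%) and from AKR1C2 at 87 (91.0%). Of all stretches of 50 bases in AKR1C1, 51.8% occur unchanged in AKR1C2 and 14.6% in AKR1C3. Of those in AKR1C3, 11.8% occur unchanged in AKR1C4. One stretch of 60 bases in exon 4 (coding positions 382 to 441) shows this, with capitals at the 11 positions where AKR1C3 differs from the other pair. It was chosen as the stretch with most such positions among those where AKR1C1 and AKR1C2 are identical. In GRCh38 it lies on chromosome 10 at 4968321 to 4968380 on the plus strand in AKR1C1, at 4999206 to 4999265 on the minus strand in AKR1C2, and at 5098814 to 5098873 on the plus strand in AKR1C3.
AKR1C1: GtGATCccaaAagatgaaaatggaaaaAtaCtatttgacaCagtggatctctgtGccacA
AKR1C2: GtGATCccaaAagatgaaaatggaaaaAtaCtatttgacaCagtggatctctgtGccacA
AKR1C3: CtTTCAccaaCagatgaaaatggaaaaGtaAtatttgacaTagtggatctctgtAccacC
A read from this stretch can separate AKR1C3 from its neighbours but cannot separate AKR1C1 from AKR1C2. How the counting treated reads that match several copies, and the read length, are stated in no source used here, so the split between AKR1C1 and AKR1C2 is uncertain.

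AKR1C3 had, parent first, 0.529 and 0.690 scaled FPKM in the LNCaP lineage, 18.7 and 10.9 in the VCaP lineage, and 0.175 and 0.191 in the LAPC4 lineage, from 15, 24, 565, 535, 7 and 14 counts. Both VCaP libraries stood far above the other 4, whose own order is within counting error inside each pair. VCaP and VCaP-CR reached the 91.4th and 84.2nd percentile of 19724 protein-coding genes, and LAPC4 the 8.60th. AKR1C3 in LAPC4 lay within the range of the lymphocyte genes above. VCaP-CR had less than VCaP, with a ratio of 0.584 (0.518 to 0.659). The ratio was 1.30 (0.657 to 2.67) in the LNCaP pair and 1.10 (0.414 to 3.21) in the LAPC4 pair, intervals that include 1.

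AKR1C1, 20-alpha-hydroxysteroid dehydrogenase, had 10 and 20 counts in the LNCaP pair, 29 and 38 in that of VCaP, and 15 and 24 in that of LAPC4, which is 0.162 to 0.476 scaled FPKM. AKR1C2, 3-alpha-hydroxysteroid dehydrogenase type 3, had, parent first and in the same order of pairs, 14, 33, 58, 64, 11 and 25 counts, or 0.307, 0.589, 1.20, 0.813, 0.170 and 0.212 scaled FPKM. Both were highest in VCaP. The AKR1C2 ratio was 1.92 (1.00 to 3.89) in the LNCaP pair and 0.681 (0.470 to 0.988) in the VCaP pair. Since reads can be split between the copies, AKR1C1 and AKR1C2 were also summed. Their ratio was then 1.80 (1.09 to 3.05) for LNCaP, 0.723 (0.538 to 0.974) for VCaP and 1.03 (0.629 to 1.73) for LAPC4. With factors from protein-coding genes only, the LNCaP change of AKR1C2 on log2(scaled FPKM + 1) was 0.23 in place of 0.28. The ratio of the sum was not recomputed with those factors.

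Summed over AKR1C1 to AKR1C4 and AKR1CL1, the family took 6.19 and 7.74 scaled CPM in the LNCaP lineage, parent first, then 70.0 and 41.9 with VCaP as parent, and 7.16 and 3.51 with LAPC4. AKR1C3 took 80.9% and 79.0% of it in VCaP and VCaP-CR, 25.9% and 27.0% in LNCaP and LNCaP-abl, and 7.37% and 16.5% in LAPC4 and LAPC4-CR. The high family level of the VCaP lineage was therefore mostly counts assigned to AKR1C3. In VCaP-CR the summed family was lower than in VCaP by a ratio of 0.598 (0.537 to 0.666), close to that of AKR1C3 alone. In the LAPC4 pair the ratio of the sum was 0.490 (0.361 to 0.664), where AKR1CL1 went from 54 counts to 8 and AKR1C3 from 7 to 14. Another relative on chromosome 10, AKR1E2, was likewise higher in the VCaP lineage, at 4.73 and 3.61 scaled FPKM against 0.265 or less elsewhere.

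**Figure D2:**
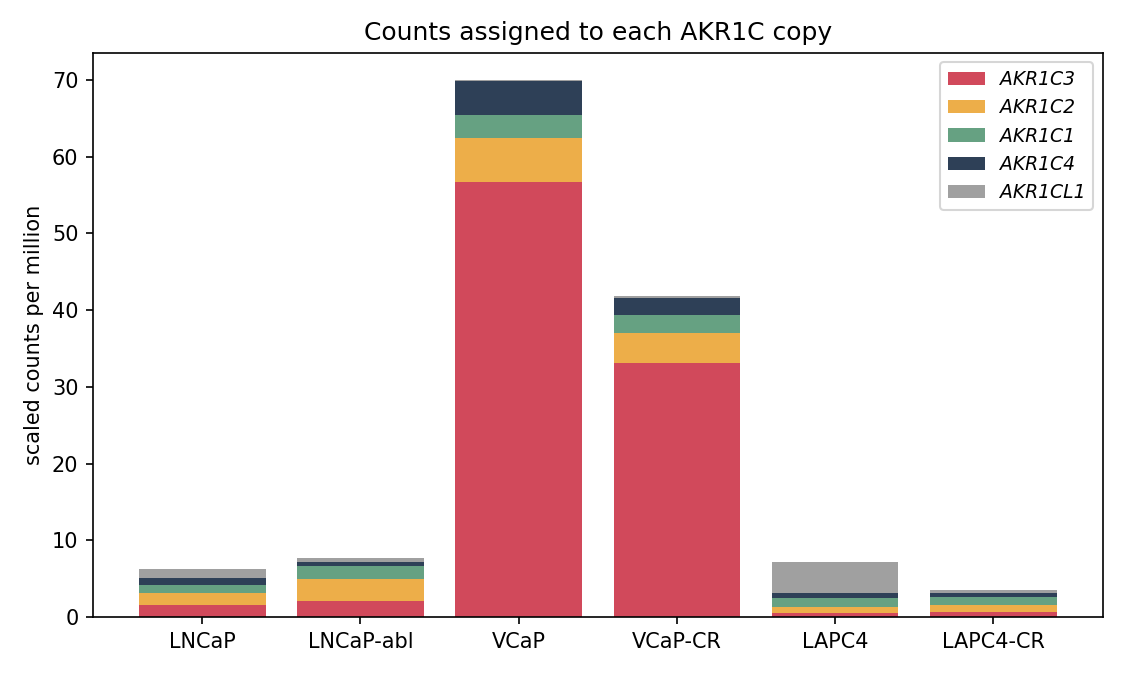
Stacked bars of scaled CPM assigned to AKR1C3, AKR1C2, AKR1C1, AKR1C4 and AKR1CL1 in each library, starting at 0. The bars of VCaP (70.0) and VCaP-CR (41.9) are mostly AKR1C3, and the LAPC4 bar (7.16) is mostly AKR1CL1.

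HSD17B4, the peroxisomal multifunctional protein 2 that also takes part in fatty acid oxidation, lies on chromosome 5, 118816037 to 118905927 (hg18). LNCaP and LNCaP-abl had 32.1 and 26.5 scaled FPKM, the VCaP lineage (VCaP, then VCaP-CR) 32.2 and 27.9, and the LAPC4 lineage (LAPC4, then LAPC4-CR) 11.5 and 14.4, from 742 to 2194 counts. Both LAPC4 libraries lay below the other 4. Its changes within pairs were small, with narrow counting intervals: the ratio was 0.827 (0.769 to 0.889) for LNCaP, 0.865 (0.810 to 0.923) for VCaP and 1.25 (1.15 to 1.37) for LAPC4. LAPC4-CR was thus closer to the other lineages than LAPC4 was. With factors from protein-coding genes only, the LNCaP change on log2(scaled FPKM + 1) was -0.42 in place of -0.27, outside its counting interval.

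HSD17B6, an oxidative 3-alpha-hydroxysteroid dehydrogenase, lies on chromosome 12, 55432212 to 55467841 (hg18). Its values, parent first, were 1.17 and 0.804 scaled FPKM in the LNCaP lineage, 10.0 and 3.02 in the VCaP lineage, and 0.996 and 0.982 in the LAPC4 lineage, from 25, 21, 227, 111, 30 and 54 counts. VCaP was highest, VCaP-CR second, and the intervals of the other 4 overlapped. It was 3.32-fold lower (2.63 to 4.20) in VCaP-CR than in VCaP, a log2 change of -1.45, and lower in the resistant library of all 3 pairs, where the smallest p an exact two-sided sign-flip permutation test of 3 pairs can give is 0.25. In the LNCaP and LAPC4 pairs the intervals included 1. Its locus overlaps that of PRIM1, a DNA primase subunit, by 213 bases, and whether the counting used strand is stated in no source used here. PRIM1 was also lower in VCaP-CR than in VCaP, with a ratio of 0.599 (0.530 to 0.676), and lower in the resistant library of the LNCaP pair, at 0.418 (0.344 to 0.505), and of the LAPC4 pair, at 0.811 (0.726 to 0.905). Its part in the HSD17B6 change was not tested.

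HSD17B11, a lipid-droplet dehydrogenase that oxidises androstanediol, lies on chromosome 4, 88476786 to 88531562 (hg18). The parent and the resistant line held 4.07 and 3.75 scaled FPKM for LNCaP, 16.5 and 17.9 for VCaP, and 5.60 and 1.12 for LAPC4, from 93, 105, 401, 706, 181 and 66 counts. The VCaP libraries were highest and LAPC4-CR stood alone at the bottom. It was 5.01-fold lower (3.76 to 6.74) in LAPC4-CR than in LAPC4, a log2 change of -1.64, while the ratio was 0.920 (0.689 to 1.23) in the LNCaP pair and 1.09 (0.959 to 1.23) in the VCaP pair. A small RNA pseudogene inside the locus, AC108516.1, went from 52 to 34 counts in the LAPC4 pair, a ratio of 0.358 (0.225 to 0.562). Its part in the HSD17B11 change was not tested.

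SRD5A1, steroid 5-alpha-reductase 1, lies on chromosome 5, 6686456 to 6722675 (hg18). LNCaP and LNCaP-abl had 3.06 and 4.21 scaled FPKM, the VCaP lineage (VCaP, then VCaP-CR) 2.81 and 3.47, and the LAPC4 lineage (LAPC4, then LAPC4-CR) 14.1 and 8.87, from 83, 140, 81, 162, 542 and 621 counts. Both LAPC4 libraries were above the other 4. The resistant line had more in the LNCaP pair, with a ratio of 1.37 (1.04 to 1.83), and less in the LAPC4 pair, with a ratio of 0.628 (0.558 to 0.706). In the VCaP pair it was 1.23 (0.939 to 1.63). With factors from protein-coding genes only, the LNCaP change on log2(scaled FPKM + 1) was 0.23 in place of 0.36. The interval of the LNCaP ratio would then include 1.

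SRD5A3, a polyprenol reductase of protein glycosylation that was also described as a 5-alpha-reductase, lies on chromosome 4, 55907033 to 55934020 (hg18). Its values, parent first, were 7.84 and 12.3 scaled FPKM in the LNCaP lineage, 1.43 and 1.43 in the VCaP lineage, and 9.62 and 10.7 in the LAPC4 lineage, from 325, 627, 63, 102, 564 and 1141 counts. Both VCaP libraries lay below the other 4. The ratio was 1.57 (1.37 to 1.80) for LNCaP, 0.999 (0.723 to 1.39) for VCaP and 1.11 (1.00 to 1.23) for LAPC4. Per length, SRD5A3 exceeded SRD5A1 by 2.56-fold in LNCaP and 2.93-fold in LNCaP-abl, whereas SRD5A1 exceeded SRD5A3 by 1.97-fold in VCaP and 2.43-fold in VCaP-CR. In the LAPC4 pair the order turned, with SRD5A1 1.47-fold above SRD5A3 in LAPC4 and SRD5A3 1.20-fold above SRD5A1 in LAPC4-CR. SRD5A2, the main reductase of normal prostate, was at 0.169 to 0.390 scaled FPKM.

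**Figure D3:**
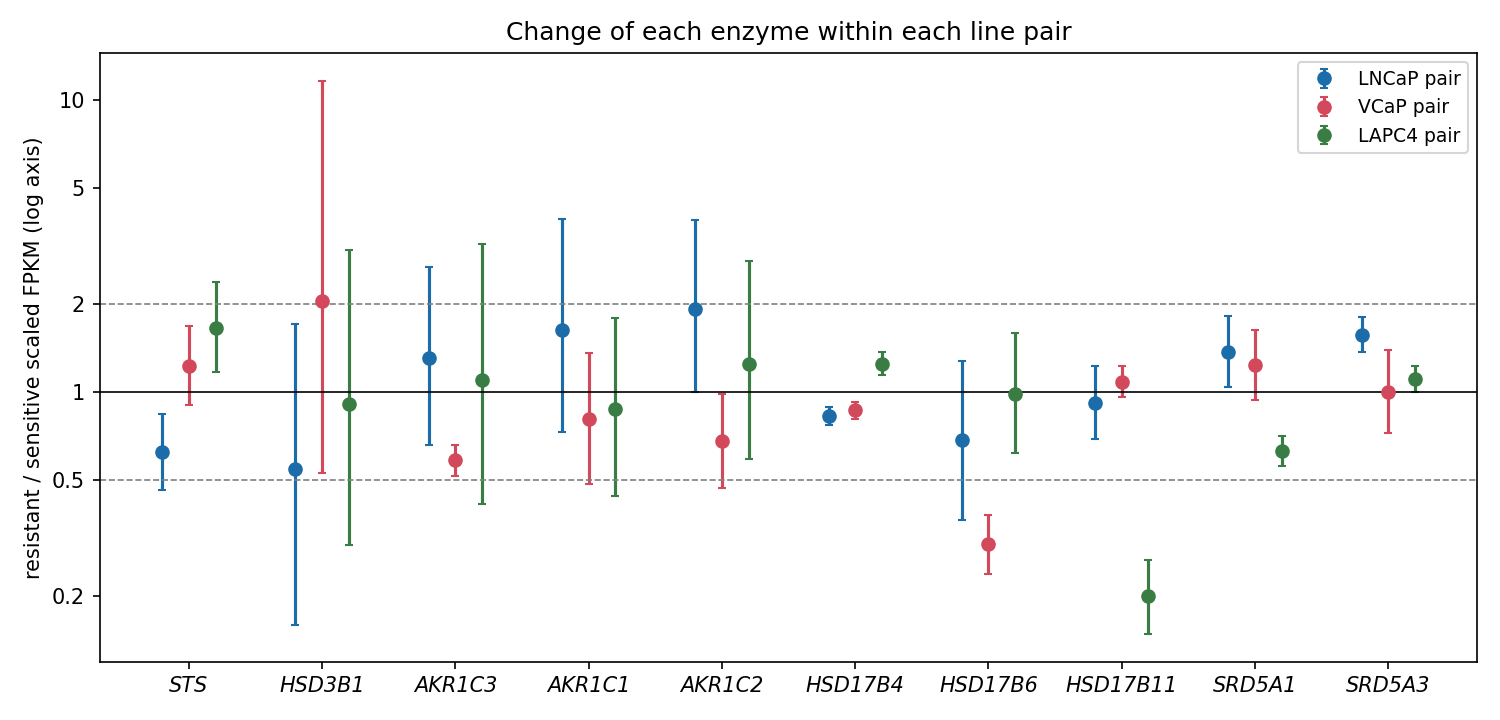
Resistant-to-sensitive ratio of scaled FPKM (log axis) for each enzyme in each pair, with exact 95% counting intervals; dashed lines mark 2-fold. Only HSD17B6 in the VCaP pair (0.302) and HSD17B11 in the LAPC4 pair (0.1997) have intervals wholly below 0.5, and those of HSD3B1 are the widest.

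Within pairs, 2-fold means a change of at least 1 in log2(scaled FPKM + 1), a scale that understates changes of low genes. Of the set, 7 enzymes had a mean of at least 1 scaled FPKM, the level required of all 17323 tested genes; AKR1C1, AKR1C2 and HSD3B1 did not. Of these 7 enzymes, 0 changed 2-fold in the LNCaP pair, against 14.4% of all tested genes. In the VCaP pair 1 did (HSD17B6), against 4.83% of tested genes, and in the LAPC4 pair 1 did (HSD17B11), against 12.5%. With 0 or 1 of 7 genes, no difference from the background can be read from these counts. The median change of the 7 was -0.10 for LNCaP, -0.0011 for VCaP and 0.02 for LAPC4, beside -0.01, -0.01 and 0.00 over all tested genes. With a pseudocount of 5 neither enzyme reached 2-fold, at -0.90 for HSD17B6 and -0.79 for HSD17B11.

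Some markers of other cell types differed within pairs. The summed level of 6 stromal genes was 5.18 in VCaP and 51.3 in VCaP-CR, of which LUM made 3.87 and 49.8. COL1A1, COL1A2, COL3A1, DCN and PDGFRB were at 0.674 or less in both. The 3 neuroendocrine genes summed to 7.11 in VCaP and 26.7 in VCaP-CR, with CHGA at 2.33 and 21.4. SYP was at 1.39 and 2.51 there, and ENO2 was lower in VCaP-CR, at 3.40 and 2.79. In LNCaP and LNCaP-abl they summed to 4.58 and 13.2, with ENO2 at 3.59 and 12.3 and the others at 0.635 or less. In LAPC4 and LAPC4-CR they summed to 4.86 and 1.90. In the LAPC4 pair the 6 stromal genes summed to 1.84 and 2.68, and HOXB13, a luminal factor, went from 30.5 to 1.64. The part of these differences in the enzyme changes was not tested.

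Across the 3 pairs, edgeR's quasi-likelihood test with the line pair as a block called 0 of 17323 genes (0%) between resistant and sensitive libraries at an adjusted p of 0.05, and 1549 had an unadjusted p below 0.05. DESeq2 called 157 and limma 0. None of the 7 enzymes was called by any of the 3 tools, and 0 of them had an unadjusted p below 0.05 with edgeR. The largest estimates were those of HSD17B6, -0.80 ± 0.44 (log2, SE, adjusted p = 0.612), and HSD17B11, -0.72 ± 0.52 (adjusted p = 0.698). SRD5A3 was at 0.28 ± 0.27 (adjusted p = 0.774) and AKR1C3 at -0.18 ± 0.37 (adjusted p = 0.907). STS was at 0.11 ± 0.39, SRD5A1 at 0.02 ± 0.34 and HSD17B4 at -0.05 ± 0.25. Without the VCaP pair the HSD17B6 estimate was -0.27, and without the LAPC4 pair -1.20. Without the LNCaP pair that of SRD5A3 was 0.078. Leaving out the VCaP pair turned the AKR1C3 estimate to 0.27, and leaving out the LAPC4 pair turned that of HSD17B11 to 0.01.

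The 3 lineages, each with a sensitive and a resistant library, were compared by edgeR's F test with the state as a term. It called 2088 of 17323 genes, or 12.1%. AKR1C3 (adjusted p = 0.00255), SRD5A3 (adjusted p = 0.0102), HSD17B6 (adjusted p = 0.0289) and SRD5A1 (adjusted p = 0.0415) were among them. HSD17B11 (adjusted p = 0.0539), HSD17B4 (adjusted p = 0.0772) and STS (adjusted p = 0.325) were not. The count of 4 in 7 is a description only. AKR1C3 and HSD17B6 reached the required mean level through the VCaP libraries, where they were high, and AKR1C1, AKR1C2 and HSD3B1 never entered.

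**Figure D4:**
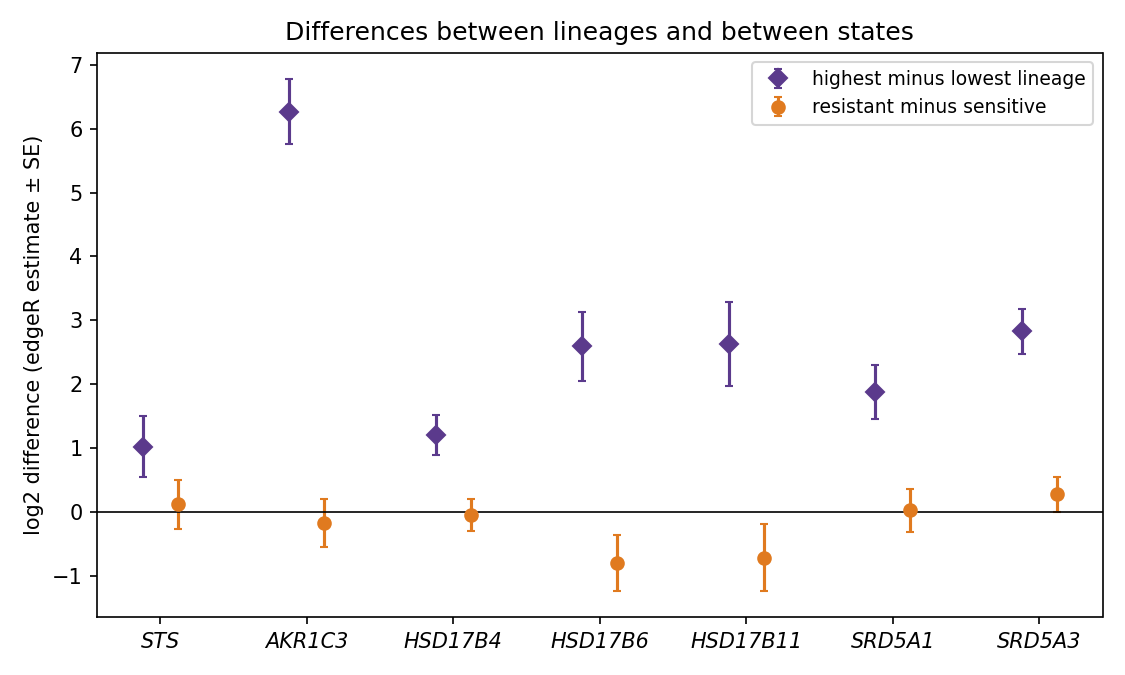
edgeR estimates on the log2 scale with SE for the 7 tested enzymes; purple diamonds give the highest minus the lowest lineage and orange circles the resistant minus the sensitive state. The lineage difference of AKR1C3 is 6.27, the state estimates lie between -0.80 and 0.28, and a highest-minus-lowest difference cannot be negative by construction.

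Between VCaP and LNCaP, where edgeR called 5.65% of genes, 3 enzymes were called. AKR1C3 was higher in VCaP by 4.58 ± 0.47 (log2, SE, adjusted p = 0.00679) and HSD17B6 by 2.59 ± 0.54 (adjusted p = 0.0443), while SRD5A3 differed by -2.77 ± 0.36 (adjusted p = 0.0110). Between VCaP and LAPC4 (11.5% of genes called), 5 enzymes were called. AKR1C3 was higher in VCaP by 6.27 ± 0.52 (adjusted p = 0.00300), HSD17B11 by 2.63 ± 0.66 (adjusted p = 0.0490) and HSD17B6 by 2.49 ± 0.54 (adjusted p = 0.0322). SRD5A3 differed by -2.83 ± 0.36 (adjusted p = 0.00748) and SRD5A1 by -1.88 ± 0.42 (adjusted p = 0.0365). Between LAPC4 and LNCaP (3.07% of genes called) 0 enzymes were called, with SRD5A1 at 1.69 ± 0.42 (adjusted p = 0.0900). The 3 contrasts share libraries and are not independent. AKR1C3 and HSD17B6 passed the level filter through the VCaP libraries, where they were high. Their differences from VCaP, and the counts of 3 and 5 enzymes that include them, are descriptions only.

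AKR1C3 and HSD17B6 entered the main fit through the VCaP libraries, and every alternative refitted the same data with VCaP or VCaP-CR kept. The alternatives are therefore no independent support for the calls of these genes. The AKR1C3 call held in all 13 alternatives run for it, with adjusted p-values up to 0.00702. That of SRD5A3 was lost without VCaP (adjusted p = 0.05003) or without VCaP-CR (0.0857), and that of HSD17B6 without VCaP (0.230) or with limma (0.0604). That of SRD5A1 was lost without VCaP (0.140), without VCaP-CR (0.105), without LAPC4 (0.201), with limma (0.0542) and with protein-coding genes alone (0.0595). HSD17B11 gained a call in 6 of 13 alternatives, among them DESeq2 (0.000531), and HSD17B4 in 1 of 13, DESeq2 (0.0214). With no filter on low values AKR1C2 was called as well (adjusted p = 0.00520), and AKR1C1 (0.144) and HSD3B1 (0.873) were not.

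Genes with the most similar pattern to AKR1C3 over the 6 libraries, by Pearson's r on log2(scaled FPKM + 1) among 4216 protein-coding genes, were MTRR (0.996), CNN3 (0.996) and ANKRD10 (0.996). CNN3 stood at 19.7 and 9.10 scaled FPKM in VCaP and VCaP-CR and at 0.492 or less elsewhere. The closest to SRD5A1 were AKT1 (0.990), SLC12A2 (0.987) and PAQR4 (0.986), and to HSD17B6 NPY (0.996), PLA1A (0.989) and ASZ1 (0.988). NPY went from 84.4 scaled FPKM in VCaP to 8.13 in VCaP-CR. With 6 libraries in 3 lineages, such values describe a shared order of the lines.

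The rest of the pathway was read from 44 genes in 5 roles, of which 23 passed the level filter. At least 2-fold changes were 2 higher and 0 lower in the LNCaP pair (14.4% of all tested genes changed), 1 higher and 2 lower in the VCaP pair (4.83%), and 2 higher and 2 lower in the LAPC4 pair (12.5%). Between states edgeR and limma called 0 of the 23 and DESeq2 called 1, SULT2B1. Between lineages edgeR called 7 of 23, or 30.4%, beside 12.1% of all tested and 14.7% of protein-coding tested genes, a description of genes chosen with earlier results known. Their median change was 0.01 for LNCaP, -0.12 for VCaP and 0.05 for LAPC4.

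In the sulfate cycle, where STS acts, SULT2B1, a sulfotransferase of hydroxysteroids, stood at 6.56 in LNCaP-abl against 1.67 scaled FPKM in LNCaP and at 8.94 in LAPC4-CR against 2.52 in LAPC4, and had 1 and 5 counts in VCaP and VCaP-CR. That is 3.93-fold (2.46 to 6.53) and 3.54-fold (2.60 to 4.93) higher in the resistant lines. Across pairs its log2 estimate was 1.85 ± 0.38, which did not pass with edgeR (adjusted p = 0.526) or limma (adjusted p = 0.474). It passed with DESeq2 (1.88, adjusted p = 0.0495) and in edgeR with no filter on low values (2.02, adjusted p = 0.0488), and adjusted p-values over the alternatives reached 0.9997, without the replicate block. PAPSS1, which makes the sulfate donor, was 2.44-fold higher (2.26 to 2.63) in VCaP-CR than in VCaP, at 61.2 against 25.1. Its relative PAPSS2 was 4.82-fold higher (3.88 to 6.05) in LAPC4-CR than in LAPC4, at 8.05 against 1.67, and 3.88-fold lower (2.91 to 5.21) in VCaP-CR than in VCaP.

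Upstream, CYB5A, cytochrome b5, which aids the lyase step of CYP17A1, was lower in the resistant library of all 3 pairs. It stood at 82.5 against 158 scaled FPKM for LNCaP, 76.9 against 97.3 for VCaP and 71.8 against 158 for LAPC4, with a log2 estimate of -0.80 ± 0.27 that did not pass (edgeR, adjusted p = 0.526). STARD3, a cholesterol carrier, was 2.32-fold higher (1.95 to 2.77) in LNCaP-abl than in LNCaP. TSPO, a mitochondrial outer membrane protein, was 2.12-fold lower (1.94 to 2.33) in LAPC4-CR than in LAPC4. HSD11B2, a cortisol dehydrogenase below the level set for naming and named after its values were seen, changed by -1.03 on the log2 scale in the VCaP pair, from 3.47 to 1.19.

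**Figure D5:**
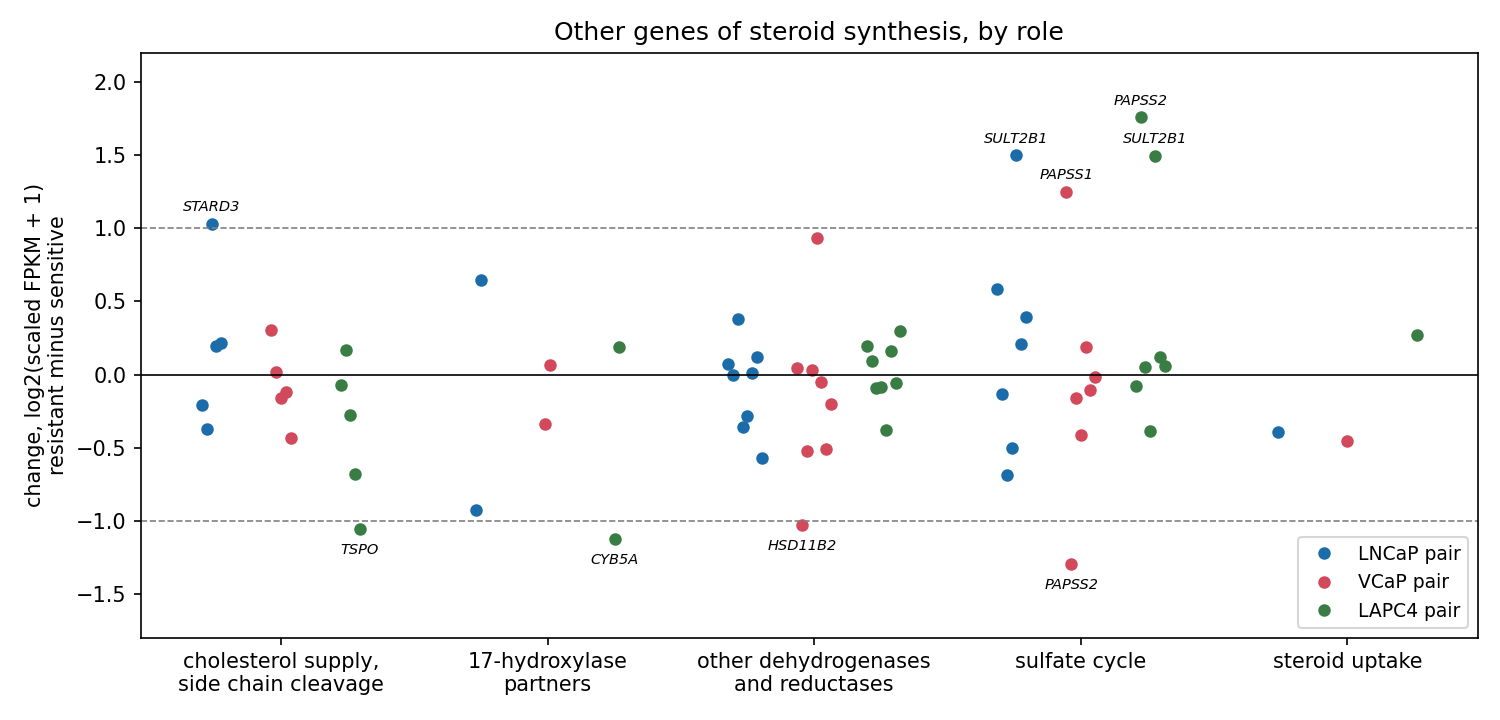
Change in log2(scaled FPKM + 1), resistant minus sensitive, of the 23 tested pathway genes outside the set, by role and pair; dashed lines mark 2-fold and genes beyond them are named. SULT2B1 lies at 1.502 in the LNCaP pair and 1.496 in the LAPC4 pair, and PAPSS2 at -1.30 in the VCaP and 1.76 in the LAPC4 pair.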

How the data were processed

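RNA-seq of 6 lines was used. Per the labels, libraries were made with the SOLiD Total RNA-Seq kit from RNeasy-purified total RNA. HTSeq and hg18 are named in the submitters' processing notes; no source used here states the aligner, annotation or strand setting. The authors deposited a whole-number count and an FPKM value per gene, per the file headers. The deposited FPKM equalled the count over gene length and summed counts within 0.1% for all 254405 values checked. The LAPC4-CR table has no length column, and the other tables' lengths were used for it.

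Entries sharing a symbol were summed (51698 entries, 47032 symbols), and 2464 symbols of small RNA classes were left out. FPKM was divided by a median-ratio factor over 12461 genes. Coordinates have 1 added to the deposited start. The 17323 genes averaging 1 scaled FPKM or more entered edgeR 4.0.16 with their deposited counts (TMM, Benjamini-Hochberg, threshold 0.05, R 4.3.3). Alternatives used DESeq2 1.42.0, limma 3.58.1, other scalings, filters and pseudocounts, and left out libraries. Each SE printed with an edgeR estimate is the absolute estimate divided by the square root of its F statistic, an approximation. Within pairs no test was possible. Pairs come from the line names. Within-pair deviations correlated at 0.450, 0.705 and 0.569, against -0.455 to -0.058 between different lines, which is partly built in. Nothing says that libraries of a group are replicate cultures, so p-values measure the spread between lines. In the lineage test a parent and its resistant line are the 2 samples of a lineage. The spread there is how far the change between them differs among pairs, not the spread between cultures of a line. The scripts were tested on simulated data. The 10 enzymes, the pathway lists and the tests were chosen with earlier results of these data known. Named are all 10 enzymes, and pathway genes at least 2-fold changed in a pair with 5 scaled FPKM or more there.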

Additional observations from a re-analysis of the deposited data

Results flagged for a closer look

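Several genes changed in opposite directions in different pairs, each beyond counting error with the scaling factors used here. The share of all genes that did so was not counted. These differences between pairs were not tested, since each pair has 1 library per state. With factors from protein-coding genes only, the LNCaP change was 0.23 in place of 0.36 for SRD5A1 and 0.23 in place of 0.28 for AKR1C2. For HSD17B4 it was -0.42 in place of -0.27. The LNCaP ratios had lower bounds of 1.04 (SRD5A1) and 1.00 (AKR1C2), so with those factors both intervals would include 1. For the other genes the intervals were not recomputed. For SRD5A1 the log2 change in the LNCaP pair exceeded that in the LAPC4 pair by 0.98. For HSD17B4 the LNCaP pair minus the LAPC4 pair gave -0.57, and the VCaP pair minus the LAPC4 pair gave -0.50. For STS the LNCaP pair minus the LAPC4 pair gave -0.69. For AKR1C2, at 14 to 64 counts in these libraries, the LNCaP pair minus the VCaP pair gave 0.56, with a lower bound of the LNCaP ratio at 1.00.

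Among the other pathway genes, STARD3 gave 1.31 and TSPO 1.27 for the LNCaP pair minus the LAPC4 pair. TSPO also gave 0.65 for the LNCaP pair minus the VCaP pair, with a lower bound of its LNCaP ratio at 1.035, close to 1. PAPSS2 gave -3.06 for the VCaP pair minus the LAPC4 pair.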

How the results depend on the processing

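The number of genes called between states, 0 with edgeR, became 157 with DESeq2 and 154 with no filter on low values, and 1, 9 and 41 without the LNCaP, VCaP and LAPC4 pair. Without the replicate block it was 0, with 533 genes at an unadjusted p below 0.05 in place of 1549. The block changed no call of an enzyme. Counts called are out of different numbers of genes. The main fit tested 17323, no filter 43113, the filter at 5 scaled FPKM 8868 and protein-coding genes only 11340. The number called between lineages, 2088, became 3973 with DESeq2, 4932 with no filter, 1101 with a filter at 5 scaled FPKM and 1292 with protein-coding genes only, and ran from 817 to 3404 when 1 library was left out (1073 without VCaP, 817 without VCaP-CR, 3276 without LNCaP, 3404 without LAPC4 and 3239 without LAPC4-CR). The 2-fold counts, 2492, 836 and 2167 for LNCaP, VCaP and LAPC4, became 867, 235 and 784 with a pseudocount of 5, 1203, 470 and 1208 with protein-coding genes only, and 1358, 398 and 1282 with a filter at 5. With a pseudocount of 0.25 the VCaP count was 1457. As shares of the genes entering, the main counts were 14.4%, 4.83% and 12.5%. They were 15.3%, 4.49% and 14.5% with the filter at 5, and 10.6%, 4.1% and 10.65% with protein-coding genes only. The split of higher and lower changes, 1155 to 1337 for LNCaP and 994 to 1173 for LAPC4, turned to 1408 to 1177 and 1307 to 1160 with CPM and to 652 to 551 and 607 to 601 with protein-coding genes only. For VCaP it was 441 to 395, 553 to 341 and 246 to 224.

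Estimates across pairs that turned sign, all uncalled, were those of SRD5A1 with limma (-0.0094), protein-coding genes only (-0.074) and no replicate block (-0.28), of HSD17B4 with no filter (0.084) and of STS with no replicate block (-0.032). Leaving out 1 pair at a time also turned signs: the estimates ran from -0.47 to 0.27 for AKR1C3 (0.27 without the VCaP pair), from -0.20 to 0.39 for SRD5A1, from -0.23 to 0.058 for HSD17B4, from -1.22 to 0.013 for HSD17B11 (0.013 without the LAPC4 pair) and from -0.19 to 0.51 for STS. The estimates kept their sign but moved for HSD17B6 (-1.20 to -0.27) and SRD5A3 (0.078 to 0.40). The cause was not tested. Of 159 alternative values within pairs, 142 stayed inside the counting interval. Where counts are few this interval is wide, so staying inside it shows little. The 159 include AKR1C family sums set against the interval of a single copy. Depth limits AKR1C1, AKR1C2 and HSD3B1, and AKR1C3 outside the VCaP lineage.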

Other observations

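Among the 7 tested enzymes, the levels of SRD5A1 and HSD17B4 ran opposite over the 6 libraries, with a Pearson r of -0.994 on log2(scaled FPKM + 1), a description in which the 2 LAPC4 libraries stand apart from the other 4. AKR1C3 and SRD5A3 gave -0.969 and AKR1C3 and HSD17B6 0.930, where the VCaP libraries stand apart. A pseudogene near HSD3B1, HSD3BP2, was at 1.15, 1.17, 0.744, 2.46, 2.75 and 0.668 scaled FPKM in LNCaP, LNCaP-abl, VCaP, VCaP-CR, LAPC4 and LAPC4-CR, above HSD3B1 in all 6 libraries.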
